A study of Mus musculus with 5 samples.

Results

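A set of 9 genes that restrain the cell cycle or belong to the p53 axis were followed in mouse mesenchymal stem cells with and without TSG-6. These genes were Cdkn2a, Cdkn2b, Cdkn2c, Cdkn1a, Cdkn1b, Trp53, Mdm2, Sesn1 and Rb1, chosen by symbol with earlier results of these data known. All 9 were among the 12621 genes of the deposited table. RNA was sequenced from 2 wild-type and 3 TSG-6 knockout libraries of mesenchymal stem cells, plastic-adherent stromal cells able to turn into bone, cartilage or fat cells. TSG-6 is a secreted hyaluronan-binding protein encoded by Tnfaip6. All samples carry the same strain label, Balb/c (C.129S6), and no treatment, age, tissue of origin or passage is given. The wild-type columns carry the suffixes C1 and SE, the knockout columns C1, C2 and SE, and the labels do not explain them. Whether libraries stem from different animals or cultures is not stated, and p-values reflect only library-to-library spread, which may be technical.

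Progress from G1 into DNA synthesis is driven by kinases that pair with cyclins and phosphorylate the retinoblastoma protein, which releases E2F transcription factors. INK4 inhibitors (Cdkn2a, Cdkn2b, Cdkn2c and Cdkn2d) bind CDK4 and CDK6, whereas CIP/KIP inhibitors (Cdkn1a, Cdkn1b and Cdkn1c) bind cyclin-CDK complexes more widely. The p53 protein, encoded by Trp53, induces Cdkn1a, Mdm2 and Sesn1, and MDM2 in turn marks p53 for degradation. Stromal cells in culture are known to accumulate INK4 products as they approach senescence.

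The INK4 locus on chromosome 4 has 3 annotated starts, and the 250 bases before each are shown because the genes they serve differed most between the genotypes. Cdkn2a is read from a distal start for the ARF protein, which protects p53 from MDM2, and from a proximal start for the kinase inhibitor p16. Cdkn2b encodes the related inhibitor p15. Sequences are those of RefSeq (GRCm38.p6), 5′ to 3′ on the minus strand, at chr4:89294620-89294869, chr4:89282193-89282442 and chr4:89311033-89311282. Windows were found for 8 of the 9 genes, some with a pair of starts. Capitals mark matches on either strand to any of 5 motifs. These are an E2F-type motif spelled TTTNNCGC, a GC box spelled GGGCGG, and the p53 consensus half-site. The others are an E-box, whose letters are CACGTG, and a TATA box, whose letters are TATAAA. No 2 matches in these 3 windows overlapped.
Cdkn2a, distal start: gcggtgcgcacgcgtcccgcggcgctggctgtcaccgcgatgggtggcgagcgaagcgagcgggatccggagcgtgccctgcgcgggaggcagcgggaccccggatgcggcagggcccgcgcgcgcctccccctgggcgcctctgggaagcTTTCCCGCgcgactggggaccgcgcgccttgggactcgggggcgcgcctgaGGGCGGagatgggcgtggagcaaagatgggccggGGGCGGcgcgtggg
Cdkn2a, proximal start: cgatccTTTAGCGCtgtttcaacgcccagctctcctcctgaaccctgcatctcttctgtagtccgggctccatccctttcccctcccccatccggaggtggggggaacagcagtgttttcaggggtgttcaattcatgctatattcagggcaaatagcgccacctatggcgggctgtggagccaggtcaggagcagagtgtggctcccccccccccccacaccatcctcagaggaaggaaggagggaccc
Cdkn2b: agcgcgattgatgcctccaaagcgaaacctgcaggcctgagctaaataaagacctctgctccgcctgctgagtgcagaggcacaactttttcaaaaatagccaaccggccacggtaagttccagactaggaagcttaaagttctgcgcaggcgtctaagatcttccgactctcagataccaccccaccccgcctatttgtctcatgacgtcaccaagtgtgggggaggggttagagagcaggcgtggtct

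The distal Cdkn2a window had a GC content of 78.4%, with an E2F-type match 99 bases before the start and 2 GC boxes. The proximal window had 60% GC and an E2F-type match 244 bases before the start. None of the searched motifs was found in the Cdkn2b window, whose GC content was 53.6%. Across 32841 windows of the same length, 4.28% held the E2F-type motif, 32.7% a GC box, 6.02% an E-box, 12.4% a TATA box and 7.13% a p53 half-site. Half-site matches were found in windows of 4 of these genes, namely Cdkn1a, Trp53, Mdm2 and Sesn1. The upstream window of Cdkn1a held a pair, GGACTAGCTT and GAACATGTCT, that began 73 and 51 bases before the start. A match describes the letters only.

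Libraries held between 13605555 and 26658725 reads assigned to genes. The targeted gene, Tnfaip6, had normalised counts (library-size-scaled read counts on the CPM scale) of 6.04 and 3.21 in the wild type and 1.65, 2.38 and 1.36 in the knockout, which did not overlap but were not called different (limma, adjusted p = 0.0578). Of 12 stromal markers, 11 were measured, among them vimentin (Vim) at 2437 to 4388 in every library, while Thy1 had no values to analyse. Within this list 2 markers were higher and 3 lower in the knockout, and the summed level ran from 5754 to 6193 in the wild type and from 19412 to 25837 in the knockout. Cxcl12 (115 and 120 against 8179 to 14071) and Col1a1 (5.55 and 56.1 against 506 to 12333) made up that difference. The other 9 markers summed to 5578 to 6072 in the wild type and 5325 to 6062 in the knockout, which overlapped. Vim and Itgb1 (1035 to 1431) were the largest parts of that sum, so it says little about the rest. The 3 lower markers were Nt5e (77.4 and 121 against 0.358 to 0.946), Cd44 (385 and 325 against 28.6 to 40.5) and Ly6a (412 and 284 against 17.3 to 48.4). The 4 adipocyte markers were all higher (summed 3.99 to 6.32 against 487 to 1421), as were the 3 smooth muscle markers measured (48.8 to 65.1 against 3085 to 6586). The 3 mesothelial or epithelial markers measured were lower (321 to 368 against 2.51 to 5.88). Of 9 haematopoietic markers 3 were measured and 2 of these were higher. The 3 summed to 3.11 to 5.19 against 38.8 to 46.8. The defining gene Ptprc and the 6 endothelial markers had no values to analyse. The part of these differences in the results below was not tested.

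Of the 9 genes, 3 were higher in the knockout and 1 was lower at an adjusted p under 0.05 (limma on log2 of the normalised count plus 0.5). Among all 12484 genes tested, 17.2% were called higher and 17.1% lower, so calls were common in this comparison. Cdkn2b, Cdkn2a and Sesn1 rose, Cdkn2c fell, and Cdkn1a, Cdkn1b, Trp53, Mdm2 and Rb1 did not pass the test. Values did not overlap between the genotypes for 4 genes that were above the wild type (28.0% of all genes tested) and 3 that were below (30.7%). The median log2 difference of the 9 genes was -0.23, against -0.09 over all genes tested. All 9 passed the filter on low values, but Cdkn2a and Cdkn2b did so through the knockout libraries alone. In bulk RNA, fewer cells that express a gene and less RNA per cell cannot be told apart.

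**Figure D1:**
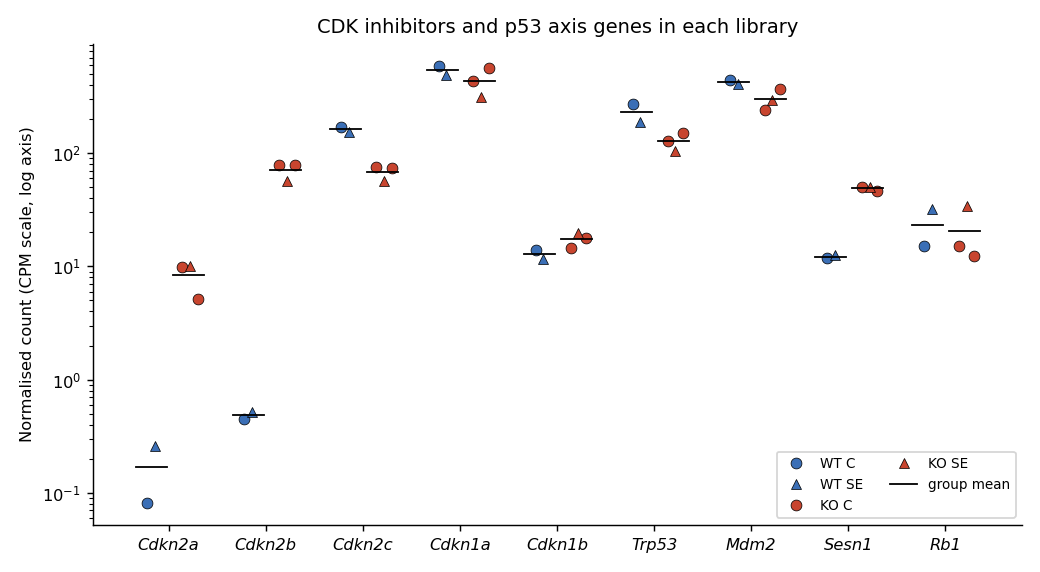
Normalised counts (CPM scale, log axis) of the 9 genes in each of the 5 libraries, with blue for wild type, red for knockout, circles for C and triangles for SE libraries, and a line at each group mean. Cdkn2a and Cdkn2b lie below 1 in both wild-type libraries and above 5 in every knockout library, whereas Cdkn1a and Rb1 overlap.

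Cdkn2b (ENSMUSG00000073802, chr4:89306299-89311039, GRCm38) had few reads in wild-type cells, at 0.446 in C1 and 0.518 in SE from 11 and 10 reads. In the knockout it reached 79.4 in C1, 78.7 in C2 and 56.5 in SE. Every knockout library was thus far above both wild-type libraries. Means were 0.482 ± 0.051 (SD, n = 2) and 71.6 ± 13.0 (SD, n = 3), a log2 difference of 6.18 (SE 0.30, 95% interval 5.46 to 6.90, adjusted p = 7.06e-05). The knockout mean was 177-fold higher among C libraries and 109-fold higher between the SE libraries.

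Cdkn2a (ENSMUSG00000044303, chr4:89274471-89294653) followed the same direction at a lower level. Wild-type C1 held 2 reads and SE 5, or 0.0811 and 0.259 normalised counts. Knockout C1, C2 and SE had 5.17, 9.84 and 10.03, from 110, 260 and 140 reads. The groups did not overlap, and the log2 difference was 3.68 (SE 0.38, 95% interval 2.77 to 4.59, adjusted p = 0.000822). Because the wild-type mean rests on 7 reads, the fold of means of 49.1 moved to 32.2 without wild-type C1 and to 103 without wild-type SE. The annotated transcripts for p16 and ARF share 575 exon bases, 67.5% and 64.2% of their lengths, and reads counted per gene cannot tell them apart.

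Cdkn2c (ENSMUSG00000028551, chr4:109660876-109667189) encodes p18, another inhibitor of CDK4 and CDK6, and moved in the opposite direction. Wild-type C1 and SE had 171 and 154, and the knockout libraries had 73.7 (C1), 76.0 (C2) and 57.3 (SE). Both wild-type libraries were above all knockout libraries, by 2.36-fold on the means and a log2 difference of -1.24 (SE 0.23, adjusted p = 0.00773). The call did not hold without wild-type C1 (adjusted p = 0.0730) or without wild-type SE (adjusted p = 0.0578). Cdkn2d, which encodes p19, was taken from the list of other genes with a Cdkn symbol. It had 98.3 and 62.8 in the wild type and 55.5, 38.5 and 25.5 in the knockout, without overlap but not called (adjusted p = 0.0786).

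Per kilobase of exon the make-up of the INK4 family differed while its summed level overlapped. The summed level per kilobase of the 4 genes was 127 and 97.9 in the wild type and 124, 118 and 86.8 in the knockout. Cdkn2a and Cdkn2b together held 0.308% and 0.607% of that sum in wild-type C1 and SE, and 49.5%, 55.2% and 56.7% in knockout C1, C2 and SE. Cdkn2c held 50.4% and 58.6% in the wild type and 22.1% to 24.6% in the knockout. These shares follow from the levels above and were not tested on their own. The Cdkn2a level counts p16 and ARF transcripts together over their merged exons, so its share is not that of p16 alone.

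**Figure D2:**
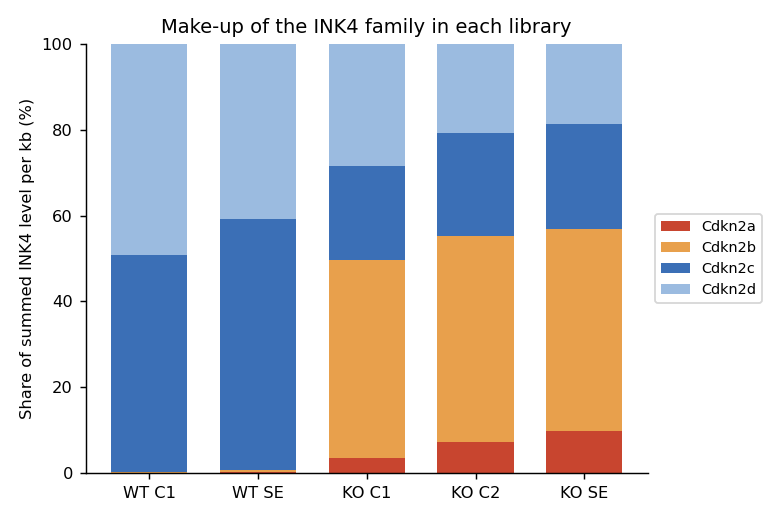
Share (%) of the summed level per kilobase of exon that each of the 4 INK4 genes held in each library, as stacked bars from 0 to 100. Cdkn2a and Cdkn2b together are below 1% in both wild-type libraries and between 49.5% and 56.7% in the knockout libraries. The Cdkn2a share counts p16 and ARF transcripts together.

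Neither CIP/KIP inhibitor among the 9 genes was called. Cdkn1a (ENSMUSG00000023067, chr17:29090976-29100727), which encodes the p53-induced inhibitor p21, had 592 and 494 in wild-type C1 and SE and 567, 431 and 313 in knockout C1, C2 and SE. The groups overlapped, and the log2 difference was -0.35 with a 95% interval from -1.09 to 0.39 (adjusted p = 0.422). Cdkn1b (ENSMUSG00000003031, chr6:134920401-134925513), which encodes p27, had 13.98 and 11.7 against 17.7, 14.6 and 19.6. Its knockout values were all above the wild type, with a log2 difference of 0.41 and an interval from -0.27 to 1.10 (adjusted p = 0.303). Cdkn1c, the imprinted inhibitor p57, had no wild-type read and 13, 41 and 23 reads in knockout C1, C2 and SE. With a floor of 3 reads in each wild-type library, it was at least 9.17-fold higher (limma adjusted p = 0.0106). Cdkn1c passed the filter on low values through the knockout libraries alone, so its call is limited in the same way as those of Cdkn2a and Cdkn2b.

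Trp53 (ENSMUSG00000059552, chr11:69580359-69591873) had 274 and 190 in wild-type C1 and SE and 152, 128 and 104 in knockout C1, C2 and SE. All knockout values were below the wild type, by 1.81-fold on the means, but the difference narrowly missed the threshold (log2 difference -0.85, SE 0.27, adjusted p = 0.0525). With the suffix as a block it was called (log2 difference -0.93, adjusted p = 0.00109), in a fit that called 60.6% of all genes tested in either direction. Mdm2 (ENSMUSG00000020184, chr10:117688875-117710758), whose product restrains p53, had 440 and 407 against 373, 241 and 294. These groups did not overlap either, and the interval of the log2 difference ran from -1.13 to 0.11 (adjusted p = 0.175).

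Sesn1 (ENSMUSG00000038332, chr10:41809935-41908424) encodes sestrin 1, a p53-induced protein that restrains the growth kinase complex mTORC1. It was at 11.8 and 12.6 in wild-type C1 and SE and at 46.8, 50.5 and 50.8 in knockout C1, C2 and SE. The values were tight within each genotype and far apart between them. The means of 12.2 ± 0.56 (SD, n = 2) and 49.4 ± 2.25 (SD, n = 3) gave a log2 difference of 1.97 (SE 0.23, adjusted p = 0.00139). Sesn1 was 4.13-fold higher among C libraries and 4.04-fold higher between SE libraries.

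Rb1 (ENSMUSG00000022105, chr14:73183673-73325822), the retinoblastoma gene, was higher in the SE than in the C libraries of both genotypes. Its C values were 15.0 in the wild type and 12.3 and 15.2 in the knockout, and its SE values were 31.9 and 34.3. The SE library was 2.12 times the C library in the wild type and 2.49 times the C mean in the knockout. In a limma fit with genotype and suffix as terms, chosen after the values were seen and with 2 residual degrees of freedom, the log2 difference between SE and C was 1.19 (SE 0.19, 95% interval 0.74 to 1.64, adjusted p = 0.00805). In that comparison 17.4% of all genes tested were called higher in SE and 15.5% lower. The call did not hold without wild-type C1 (adjusted p = 0.157), wild-type SE (0.159) or knockout SE (0.333). Trp53 was the other of the 9 genes called, lower in SE by a log2 difference of -0.47 (adjusted p = 0.0350). Between genotypes the Rb1 log2 difference was -0.23 with an interval from -1.49 to 1.03 (limma adjusted p = 0.773). The sign for Rb1 turned without wild-type SE (0.30) and without knockout C1 (0.06). Exons of Rcbtb2 and Lpar6 overlap Rb1 on the opposite strand, and the sources do not say if reads were counted by strand, so the Rb1 value is uncertain.

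**Figure D3:**
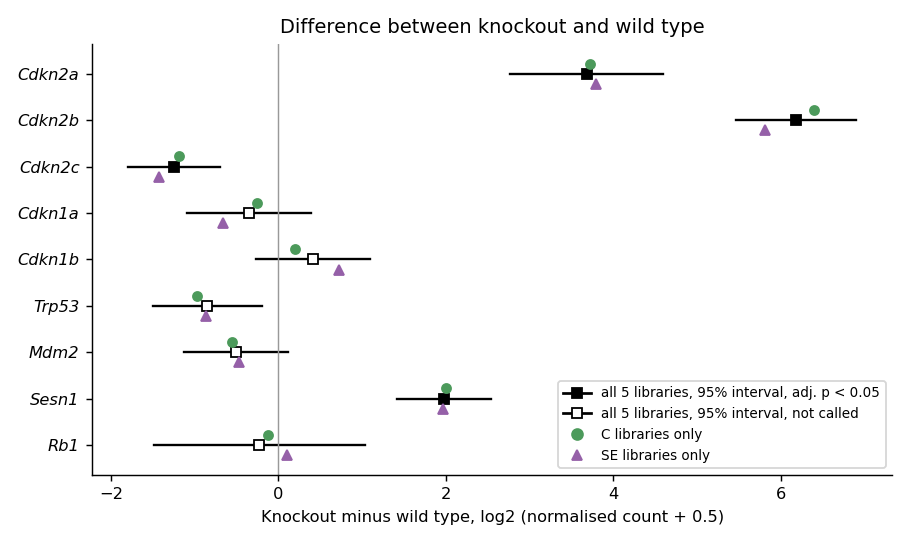
Log2 difference between knockout and wild type (normalised count plus 0.5) of each gene with its 95% interval over 5 libraries (squares, filled where the adjusted p was under 0.05), and the same difference among C libraries (green circles) and between SE libraries (purple triangles). Every gene except Rb1 has the same sign among C and between SE libraries.

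Levels per kilobase placed Cdkn1a first and Mdm2 second in both genotypes, at 153 and 83.3 in the wild type and 123 and 59.5 in the knockout. In the wild type Cdkn2c (60.6) and Trp53 (57.4) followed and overlapped, and Rb1, Sesn1 and Cdkn1b lay between 2.82 and 3.90, with each neighbour in that order overlapping. Cdkn2b (0.347) and Cdkn2a (0.145) came last. In the knockout Cdkn2b (51.5) came next and overlapped Mdm2, ahead of Trp53 (31.6) and Cdkn2c (25.7), which overlapped. Sesn1 (12.4), Cdkn2a (7.12), Cdkn1b (3.80) and Rb1 (3.43) followed, and the last 2 overlapped.

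Genes beside the INK4 locus went both ways. Mtap, a methionine salvage enzyme whose start lies 174 kb from that of Cdkn2b, had 1186 and 787 in wild-type C1 and SE and 136, 112 and 84.3 in knockout C1, C2 and SE. It fell 8.91-fold (adjusted p = 0.000610). Gm12603, 261 kb away, had 35.5 and 19.5 in the wild type and no knockout read, at least 176-fold lower with a floor of 3 reads per library. Gm12602 rose 4.64-fold, but only from 0.203 and 0.259 (5 reads each) to between 0.788 and 1.25. On the other side the nearest tested genes lay 2496, 4024 and 5166 kb off. There Gm12669 was not called, Tusc1 rose 2.24-fold and Gm12655 fell from 9.97 and 7.30 to between 0.188 and 0.573. Gm12602 passed the filter on low values through knockout libraries alone, and Gm12603 and Gm12655 through wild-type libraries alone. Around Sesn1, 5 of the 6 nearest tested genes rose, against 17.2% of all genes tested. Cep57l1, which starts 0.064 kb away on the opposite strand, rose 3.02-fold, Foxo3, a forkhead factor that favours cell cycle arrest, rose 4.08-fold, and Smpd2, Cd164 and Lace1 rose 4.35-fold, 3.09-fold and 3.38-fold. Gm9855 was not called.

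**Figure D4:**
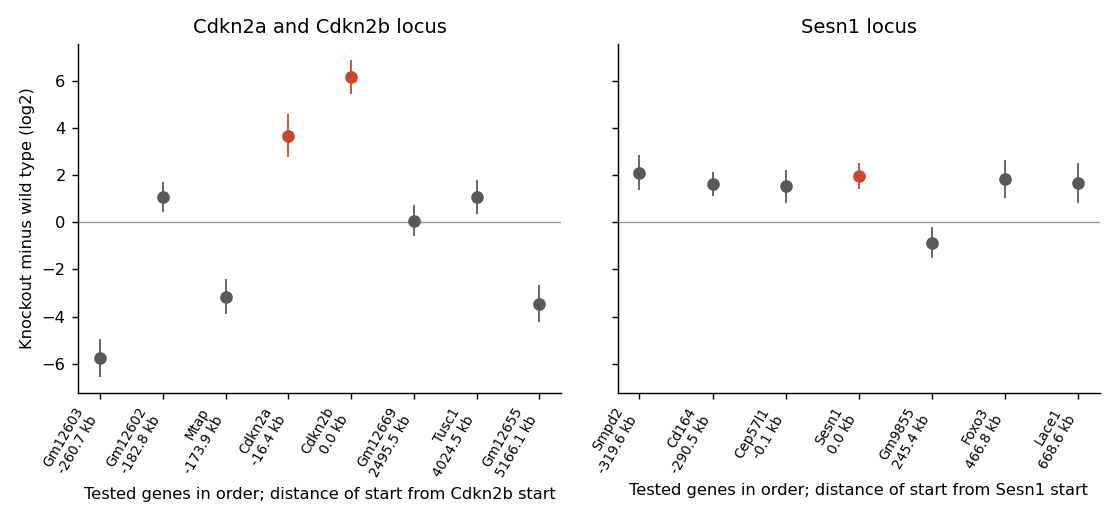
Log2 difference between knockout and wild type with 95% intervals for the 3 nearest tested genes on each side of the Cdkn2a and Cdkn2b locus (left) and of Sesn1 (right), in chromosomal order, with the distance of each start in kb under its name and the described genes in red. At the left locus Mtap and Cdkn2b lie on opposite sides of 0, and at the right locus 5 of 6 neighbours are above 0 like Sesn1.

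Among the partners of these inhibitors, more genes were called lower than higher. The lists from here on were chosen with earlier results of these data known. Their shares, set beside those of all genes tested, are therefore a description and not an independent test. Of 8 G1 cyclins and kinases, 1 rose (12.5%, against 17.2% of all genes tested) and 4 fell (50%, against 17.1%), with a median log2 difference of -0.57. Ccnd1, the cyclin D1 gene, had 857 and 996 in the wild type and 149, 127 and 101 in the knockout, and fell 7.38-fold. Ccnd2, the cyclin D2 gene, rose 2.84-fold, with knockout values between 678 and 776. Cdk6, a kinase that INK4 proteins bind, fell 5.66-fold, and Ccne2, a partner of CDK2, fell 4.56-fold. Cdk4, the other INK4 target, named after its values were seen, ran from 626 to 875 in the wild type and from 567 to 758 in the knockout and was not called (adjusted p = 0.787).

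Of 17 RB family members, E2F factors and components of their complexes, 0 rose and 9 fell (52.9%, against 17.1% of all genes tested called lower and 17.2% higher), with a median of -0.85. E2f2 fell 13.8-fold, to between 0.141 and 0.573, and the cell cycle transcription factor Mybl2 fell 3.96-fold. Lin9 and Lin54, subunits of the complex that pairs with it, fell 3.05-fold and 2.86-fold. Of 22 E2F target genes, 1 rose (4.55%) and 13 fell (59.1%, median -1.25). Cdc6 and Cdt1, which license replication origins, fell 4.11-fold and 2.54-fold, Mcm7 of the replicative helicase fell 3.07-fold and Ccna2, the cyclin A2 gene, fell 3.29-fold. The exception, named after its values were seen, was the ribonucleotide reductase gene Rrm2, which rose 2.95-fold. Of 8 proliferation markers, 0 rose and 6 fell (75%, median -1.56), among them Top2a (3.23-fold), Aurkb (3.69-fold), Bub1 (2.62-fold) and Plk1 (3.21-fold).

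Targets of p53 were left uncalled about as often as other genes. Of 41 tested, 27 were not called (65.9%, against 65.7% of all genes tested), 10 rose (24.4%, against 17.2%) and 4 fell (9.76%, against 17.1%), with a median of -0.06. Gdf15, a stress-induced secreted factor, had 1.18 and 0.725 in the wild type and 31.9, 19.6 and 20.6 in the knockout, and rose 25.3-fold. The death receptor gene Fas rose 4.32-fold and the atypical cyclin gene Ccng2 rose 2.41-fold. Klf4 fell 5.16-fold, and the others that fell, named after their values were seen, were Plk2, Plk3 and Epha2. Of 22 p53 regulators and relatives tested, 1 rose (4.55%, against 17.2% of all genes tested) and 7 fell (31.8%, against 17.1%), with a median of -0.26. Chek1, a checkpoint kinase that acts on p53, fell 4.78-fold, Usp10, which removes ubiquitin from p53, fell 3.07-fold, the ribosomal protein gene Rpl5 fell 3.02-fold and Ppm1d, a phosphatase that dampens p53, fell 1.99-fold. Ppp1r13b, named after its values were seen, rose 2.86-fold.

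Known regulators of the INK4 locus were called lower in a share near that of all genes tested. The list was not split by whether a gene represses or activates the locus, so these shares do not speak to either role. Of 35 tested, 7 fell (20%, against 17.1%), 2 rose (5.71%, against 17.2%) and 26 were not called (74.3%, against 65.7%), with a median of -0.33. Id4, an inhibitor of helix-loop-helix factors, went from 2.92 and 3.00 to 31.3, 31.9 and 56.0, a 13.4-fold rise, and Jdp2, named after its values were seen, rose 2.09-fold. Tbx3, a T-box repressor of the locus, fell 6.51-fold. Phc2, a Polycomb subunit, fell 3.49-fold and Myc fell 2.57-fold. Of 18 genes associated with cell senescence that were tested, 2 rose (11.1%, against 17.2% of all genes tested) and 6 fell (33.3%, against 17.1%), with a median of -0.58. Igfbp7, a secreted binding protein, rose 10.9-fold, while the chromatin proteins Hmga1 and Hmga2 fell 25.1-fold and 5.74-fold. The stromelysin gene Mmp3 fell from 10.05 and 5.80 in the wild type to 0.235, 0.151 and 0 in knockout C1, C2 and SE, which held 5, 4 and 0 reads. Other genes with a Cdkn symbol, not all of which encode CDK inhibitors, numbered 5. Of these, 1 rose (Cdkn1c) and 1 fell (20% each, near the 17.2% and 17.1% of all genes tested). The gene that fell was Cdkn2aipnl, at 4.07-fold, and Cdkn2aip was not called (adjusted p = 0.615).

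**Figure D5:**
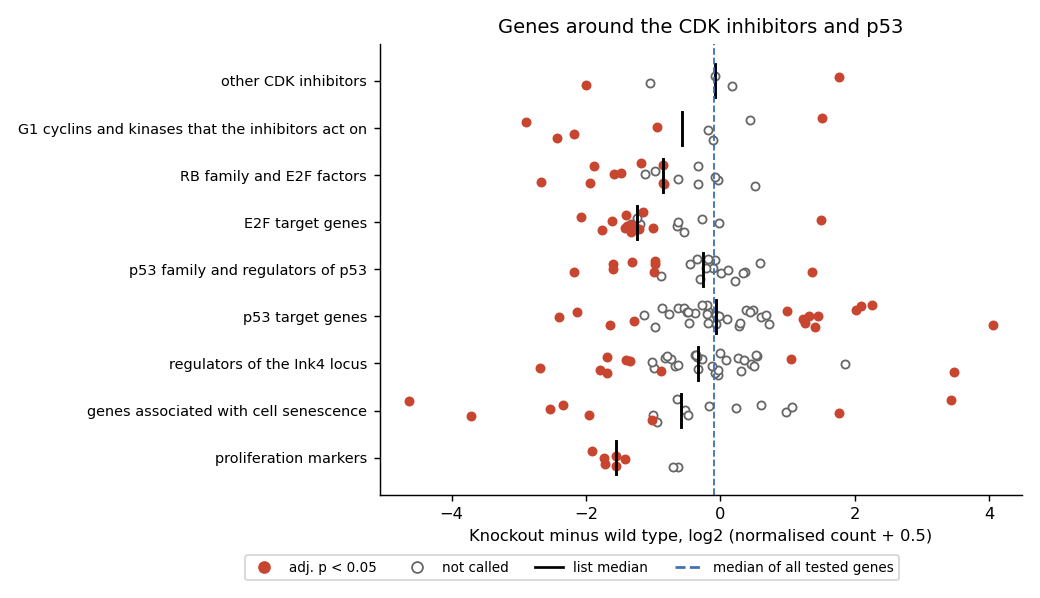
Log2 difference between knockout and wild type (normalised count plus 0.5) of every tested gene in 9 lists around the CDK inhibitors and p53, filled red where the adjusted p was under 0.05, with a black bar at each list's median and a dashed line at the median of all genes tested. Medians lie lowest for proliferation markers (-1.56) and E2F targets (-1.25), and p53 targets spread to both sides of 0.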

How the data were processed

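Libraries of a stranded mRNA kit were read as 75 bp single ends, per the labels' protocols. The submitters' processing notes list STAR 2.5, featureCounts 1.5.2 and edgeR without a role. Build, annotation and strand setting are not given in the sources used here. The deposited values are a signal: gene counts that the authors divided by a library size, on the CPM scale (column totals 931660 to 1052926). Dividing by the value of 1 read gave whole numbers (tolerance 0.02) for 100% of values. Implied library sizes matched TMM-scaled sizes. Columns name a group but no numbered sample.

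Values of at least 1 in at least 2 libraries were kept, and log2 of the value plus 0.5 was tested with limma 3.58.1 (eBayes with a trend, group as the only term, 3 residual degrees of freedom), with Benjamini-Hochberg adjustment over 12484 genes and a threshold of 0.05. Log2 differences on this scale understate changes of low genes, and folds are ratios of group means. Floors cover counting error only. Lengths and coordinates are from GENCODE M21 (GRCm38) by Ensembl identifier (12607 genes matched). Named genes were the 9 members, in each list the up to 4 genes of smallest p-value, the 3 nearest tested genes on each side of a locus and the 3 nearest in pattern. The values of 1 listed gene are not reported here, though list counts include it. Members and lists were chosen with earlier results of these data known. Alternatives used edgeR 4.0.16 and DESeq2 1.42.0 on recovered reads, and R 4.3.3 and Python 3.11.15. Scripts were tested on simulated data. Replicates differed by more than counting noise (chi-square per degree of freedom 62.3 to 220).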

Additional observations from a re-analysis of the deposited data

How the results depend on the processing

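Cdkn2a, Cdkn2b and Sesn1 were called higher in the knockout under each of 18 alternatives, and Cdkn1a, Cdkn1b, Mdm2 and Rb1 under 0 of them. The count of the 9 genes called lower rose from 1 to 2 with quantile normalization and with the suffix block, where Trp53 joined Cdkn2c (Trp53 adjusted p = 0.0452 with quantile normalization), and lay between 0 and 1 without single libraries. The Rb1 log2 difference turned to 0.30 without wild-type SE and to 0.06 without knockout C1, and was lowest at -0.76 without wild-type C1; the cause was not tested. Over all genes, the suffix block gave 3530 higher and 4038 lower, against 2150 and 2129, and leaving out both SE libraries gave 1418 and 1404 with fewer samples. Without single libraries the counts ran from 846 to 2409 higher and from 764 to 2629 lower. Where 1 wild-type library remained, it was assumed to vary like the knockout. edgeR called 32.7% and DESeq2 38.7% of genes in either direction. No paired analysis was possible because the columns carry no replicate number of the sample titles. The suffix block goes by column name alone. Depth limits Cdkn2a and Cdkn2b in the wild type, at 7 and 21 reads. In every alternative with a filter on low values, Cdkn2a and Cdkn2b passed it through the knockout libraries alone. Their calls under the alternatives therefore share that limit, which does not apply to Sesn1.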

Other observations

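The D-type cyclins, the activating partners of the kinases that INK4 proteins inhibit, also differed in make-up per kilobase of exon, a pattern examined after the values were seen and not tested on its own. Ccnd1 held 80.0% and 82.8% of the summed cyclin D level in wild-type C1 and SE and 25.6%, 24.5% and 20.998% in knockout C1, C2 and SE. Ccnd2 held 12.8% and 9.56% in the wild type and 66.5%, 66.8% and 70.7% in the knockout. Ccnd3 lay between 7.20% and 8.70% in every library. The summed level per kilobase was 227 and 255 in the wild type and 124, 110 and 102 in the knockout, without overlap.

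Genes whose centred log2 profiles over the 5 libraries lay nearest to those described were identified by Euclidean distance. Actg2 (distance 0.35), Rgs4 (0.39) and Rps4l (0.48) were nearest to Cdkn2b. Coq8a (0.29), Aldh6a1 (0.29) and Cables1 (0.33) were nearest to Cdkn2a. Cdkl1, Parp3 and Pcnx4 were nearest to Sesn1, each at a distance of 0.13. The 5 libraries share the genotype contrast, which sets most of this likeness.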
